A study of Drosophila melanogaster with 4 samples.

Results

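The centromere-proximal end of the X chromosome of Drosophila melanogaster was examined for trimethylation of lysine 9 of histone H3 (H3K9me3) in nuclei of whole larvae. The members were chosen by position and not by signal. They are the last 2 Mb of the assembled X arm without the 310 kb that hold the flamenco and 20A piRNA loci, together with all of XHet, a scaffold of X heterochromatin that lies outside the assembled arm. Positions are on FlyBase release 5. Cut into windows of 5 kb, this gave 380 windows out of 27949 in the 13 sequences that carry clusters. The outer X stretch (X:20422828-21380000) lies on the telomere side of the piRNA loci and holds 192 windows. The inner X stretch (X:21690001-22422827) runs from the loci to the end of the arm and holds 147 windows. XHet (204112 bp) holds 41 windows.

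All samples came from third-instar larvae of the wild-type strain Oregon-R (Oregon-R-modENCODE), grown without any treatment named in the labels. There were 2 ChIP libraries, immunoprecipitated with a new lot of an H3K9me3 antibody, and 2 input libraries that served as their background and have no list of their own here. The measurements are lists of clusters, stretches that the authors called significantly enriched: 1 list per ChIP replicate and 1 combined list. Whole animals mix all tissues and the labels name no sex. In such a mixture fewer cells with the mark cannot be told apart from less mark per cell. The labels do not say whether the replicates are separate animals, so the spread between them may be technical. Read totals are not given, and the depth behind each cluster is unknown.

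H3K9me3 is set by methyltransferases such as Su(var)3-9 and Eggless, and is bound by Heterochromatin Protein 1, which compacts repeat-rich chromatin around centromeres and keeps transposons silent. The heterochromatin of X carries satellite repeats and the ribosomal RNA genes of the bobbed locus. The flamenco locus beside the windows makes piRNAs that silence gypsy-type retrotransposons in the follicle cells of the ovary. Genes were not placed on the windows, because the genes at hand are placed on release 6, another build. In the order of that build, the centromere-side genes of X start at DIP1, which codes for a double-stranded RNA-binding protein. They go on past tilB and wap to fog, which codes for a secreted signal for cell shape change in gastrulation, and to stnA and stnB, which act in the recycling of synaptic vesicles. They end near su(f), which codes for a factor in cutting the 3' ends of mRNAs. Sequence of the windows was not analysed here.

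Clusters covered the members at 18.1% in replicate 1 and 22.3% in replicate 2, a mean of 20.2% ± 3.00 (SD, n = 2 replicates, as in all values with ± that follow). The 3 stretches differed widely. The outer X stretch was covered at 9.02% and 12.7% (10.9% ± 2.63), the inner X stretch at 17.1% and 21.1% (19.1% ± 2.79), and XHet at 64.0% and 71.8% (67.9% ± 5.50). The order was the same in each replicate and in the combined list, where the values were 18.9%, 28.0% and 80.2%. XHet exceeded the inner X stretch by 48.8 ± 2.71 percentage points and the inner exceeded the outer stretch by 8.20 ± 0.164, both more than the spread between replicates. The second difference depended on 1 dense block, described below and drawn after the values had been seen. Without it the inner stretch was at 7.11% and 11.1%, below the outer stretch in each replicate. The design has 1 group of 2 replicates, for which an exact two-sided sign-flip permutation test cannot give a p below 0.5, so differences are set against that spread alone.

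A window was counted as covered when clusters held at least 50% of its bases. In replicate 1 this was so for 63 of the 380 members (16.6%), against 15.6% of all windows in the 13 sequences. In replicate 2 it was so for 79 members (20.8%), against 17% of all windows. Both replicates covered 59 members (15.5%), against 15.2% of all windows, so the members as a whole lie near the background. The stretches lie on either side of it. Both replicates covered 10 of 192 outer windows (5.21%), 20 of 147 inner windows (13.6%) and 29 of 41 XHet windows (70.7%). No cluster of either replicate touched 132 outer windows (68.75%), 81 inner windows (55.1%) and 3 XHet windows (7.32%). The share of untouched windows over all 13 sequences was not computed, so these counts have no background beside them.

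**Figure D1:**
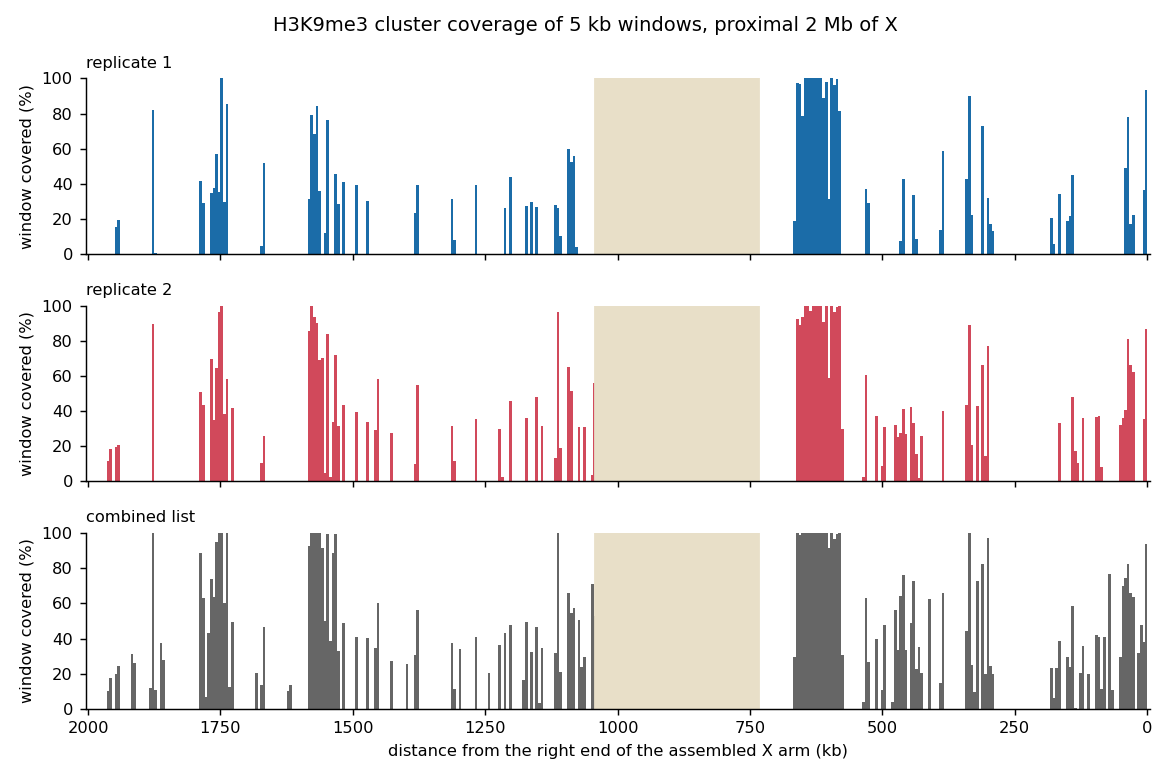
Percent of each 5 kb window covered by clusters (vertical axis) against distance from the right, centromere-side end of the assembled X arm in kb (horizontal axis), for replicate 1, replicate 2 and the combined list. The tan band marks the piRNA loci that were left out. A dense block stands to the right of the band in all 3 lists, and the windows nearest the arm end are mostly low.

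Coverage of the X arm did not climb steadily towards its centromere-side end. In bins of 100 kb, clusters held 12.7% of the last bin of the arm in replicate 1 and 24.3% in replicate 2. The bin from 100 to 200 kb was at 7.27% and 7.28%, and the bin from 200 to 300 kb at 2.54% and 1.02%. The highest bin lay from 600 to 700 kb, at 58.9% in each replicate. Among the bins with member bases, it was the only one above 50% in the replicates. Across the 18 bins with member bases, the Spearman correlation of coverage with distance from the end was -0.21 in replicate 1 and -0.18 in replicate 2. This is a description of neighbouring bins that share a library, with no test.

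A 2-level step fitted to the 339 X windows found its boundary at X:21755001 in replicate 1 and the combined list and at X:21760001 in replicate 2, 668 kb and 663 kb from the arm end. Mean window coverage left and right of it was 8.43% and 19.0% in replicate 1, and 12.0% and 23.5% in replicate 2. This fit joined the outer and inner windows across the excluded piRNA loci, and the position depends on that exclusion. With the loci included, the boundary lay 930 kb from the arm end in replicate 1, 1045 kb in replicate 2 and 1120 kb in the combined list. The right side of the fit without the loci is not a plateau. It opens with a dense block and then falls back to low coverage.

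That block ran from X:21759052 to 21844076 in replicate 1 (85.0 kb, 6 clusters) and from X:21760208 to 21846506 in replicate 2 (86.3 kb, 8 clusters). It was drawn, after the values had been seen, from the first cluster of the inner stretch to the first gap of over 10 kb. Clusters covered 93.3% and 95.4% of it. It held 63.3% of all covered bases of the inner X stretch in replicate 1 and 53.4% in replicate 2, although it makes up a small part of the stretch. Among the X members, the longest run of windows covered in both replicates lay here, 12 windows from X:21760001 to 21820000, at 96.6% and 96.9%. A further run of 4 windows followed, from X:21825001 to 21845000, at 94.3% and 98.9%.

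The first cluster of the block scored highest and the last scored lowest in both replicates. The first scored 3.83 in replicate 1 (X:21759052-21764859) and 3.29 in replicate 2 (X:21760208-21764821), the highest score of the inner stretch in each list. The widest cluster scored 2.37 in replicate 1 (39.2 kb) and 2.15 in replicate 2 (26.5 kb). The last scored 1.33 and 1.23. In the combined list the block was made of 4 clusters, of which the widest (X:21765149-21821107, 56.0 kb) scored 2.33, above 82.7% of that list.

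Uncovered sequence bordered the block. Between it and the nearest cluster inside the piRNA loci lay 71.5 kb in replicate 1 and 72.7 kb in replicate 2 with no cluster. No cluster joined the block to the loci. The next cluster on the centromere side followed after 47.1 kb and 43.4 kb. The loci themselves were covered at 52.9% ± 6.30. The 100 kb to their right was at 29.1% ± 0.682 and the 100 kb to their left at 14.3% ± 3.47.

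The rest of the inner X stretch was then described without the block. Its coverage there was 7.11% in replicate 1 and 11.1% in replicate 2 (9.12% ± 2.84), against 6.96% and 9.01% (7.98% ± 1.45) for X left of its last 2 Mb. The difference was 1.13 ± 1.40 percentage points, and with the block it was 11.1 ± 1.34. In each replicate the rest of the inner stretch also lay below the outer stretch (9.02% and 12.7%). The block was left out because it was dense, while the outer stretch and the remainder of X kept their own dense bins. Both comparisons therefore follow in part from that choice and are descriptions only. The median score of the 18 and 26 clusters outside the block was 0.809 and 0.807, against 0.751 and 0.758 for the remainder of X.

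The part of the inner stretch between the block and the arm end held few strong clusters. A pair at X:22082859-22091117 in replicate 1 scored 2.06 and 2.07, and the same pair scored 2.25 and 1.83 in replicate 2. In the combined list it was 1 cluster of 8.45 kb with a score of 2.01. The tip of the arm carried a cluster in every list. It scored 0.926 in replicate 1 (X:22418186-22422638) and 0.990 in replicate 2, below the list medians of 1.75 and 1.43, and 0.921 in the combined list, above its median of 0.587. The last 50 kb were covered at 25.5% and 40.4%, and the 50 kb before them at 0% and 8.25%. The longest gap of the members lay here as well, X:22130667-22243985, 113.3 kb without a cluster in either replicate and covered at 0.419% in the combined list.

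The outer X stretch was made of scattered, narrow clusters of low score. Replicate 1 held 36 of them (37.6 per Mb) and replicate 2 held 43 (44.9 per Mb), against 26.3 and 31.2 per Mb on the remainder of X. The median width was 1958.5 bp and 2102 bp, and the median score 0.748 in both replicates. On the remainder of X the medians were 2057 bp and 2178 bp, with scores of 0.751 and 0.758. None of the 36 clusters of replicate 1 and 1 of the 43 of replicate 2 reached the median score of its list. Coverage exceeded the remainder of X by 2.06 percentage points in replicate 1 and 3.73 in replicate 2 (2.90 ± 1.18), more than the spread. When clusters below the median score of their list were dropped, this difference turned to -0.363 ± 0.066.

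Outer coverage was densest in 2 places. Clusters held 25.1% of the bin 1500 to 1600 kb from the arm end in replicate 1 and 39.1% in replicate 2, and the bin from 1700 to 1800 kb at 22.5% and 29.9%. Over all 10 outer bins the median was 6.02%, close to the median of 5.97% over 204 bins of the remainder of X. Of those 204 bins, 2 were covered as much as the first and 5 as much as the second. None of the 204 reached the 58.9% of the bin that holds the inner block, and their highest was 54.8%.

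In the first place the combined list had a cluster of 27.5 kb (X:20838197-20865683) with a score of 0.876. Replicate 1 covered 54.4% of it and replicate 2 covered 87.6%, the latter with a cluster of 13965 bp. In the second place the combined list had a cluster of 12.4 kb (X:20666906-20679317), covered at 69.3% and 90.4%. The highest score of the outer stretch belonged to a cluster near the piRNA loci, X:21329543-21335545 in the combined list (1.58). It scored 1.74 in replicate 1 and 1.64 in replicate 2, and the replicates covered 93.4% and 97.1% of it. The longest outer gaps were 87.4 kb (X:20547865-20635280), 81.8 kb (X:20756748-20838533) and 65.7 kb (X:21045576-21111251).

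XHet fell into 3 segments that followed each other along the scaffold with rising scores. The boundaries were drawn after the values had been seen, and no test was made. The left segment, the first 93.7 kb in replicate 1 and 93.5 kb in replicate 2, was patchy. It was covered at 46.6% and 59.1% (52.9% ± 8.84), by 13 and 11 clusters with a median score of 0.717 and 0.781. Clusters were denser at its start, where both replicates covered a run of 7 windows from XHet:1 to 35000, at 73.3% and 90.4%. The combined list had a cluster of 20.1 kb at XHet:15566-35665 (score 0.985). In the middle of the left segment the longest gap of XHet ran from XHet:58242 to 69189 (10.9 kb). The combined list covered 6.92% of that gap.

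The middle segment held 6 clusters at regular intervals, from XHet:93651 to 127172 in replicate 1 and from XHet:93541 to 127986 in replicate 2. They started at 93651, 99371, 105405, 111110, 117169 and 123146 in replicate 1. In replicate 2 they started at 93541, 99305, 105366, 111296, 117003 and 123038. The spacing from start to start was 5899 bp in replicate 1 (SD 173 over 5 spacings) and 5899 bp in replicate 2 (SD 159). In the combined list it was 5877 bp (SD 124). Mean cluster width was 4241 bp and 4503 bp in the replicates, and the gaps between clusters averaged 1616 bp and 1485 bp.

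These 6 clusters lay at almost the same positions in both lists. Their starts differed between replicates by a median of 109 bp and their ends by a median of 666 bp. Their scores stayed within 1.51 to 1.69 in replicate 1 and within 1.44 to 1.75 in replicate 2, above every cluster of the left segment, whose highest scores were 1.08 and 1.32. The regular series ran on for 1 further start in every list, at XHet:129348, 128775 and 128774. In replicate 1 it also reached back to XHet:75005, for 9 spacings in all with a mean of 6038 bp (SD 241).

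Runs of at least 5 clusters whose spacings all lay within 10% of their median were then counted in all 13 sequences, a rule written after this series had been noticed. Replicate 1 had 2 such runs, replicate 2 had 9 and the combined list had 9. Each list had 1 run on XHet, and every other run lay on U, the collection of unplaced sequence, with at most 4, 6 and 5 spacings. No run lay on the large arms, on chromosome 4 or on another heterochromatic scaffold in any of the 3 lists. Whether the sequence under the clusters is itself repeated was not tested, and the authors' treatment of reads that match several places is not given.

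**Figure D2:**
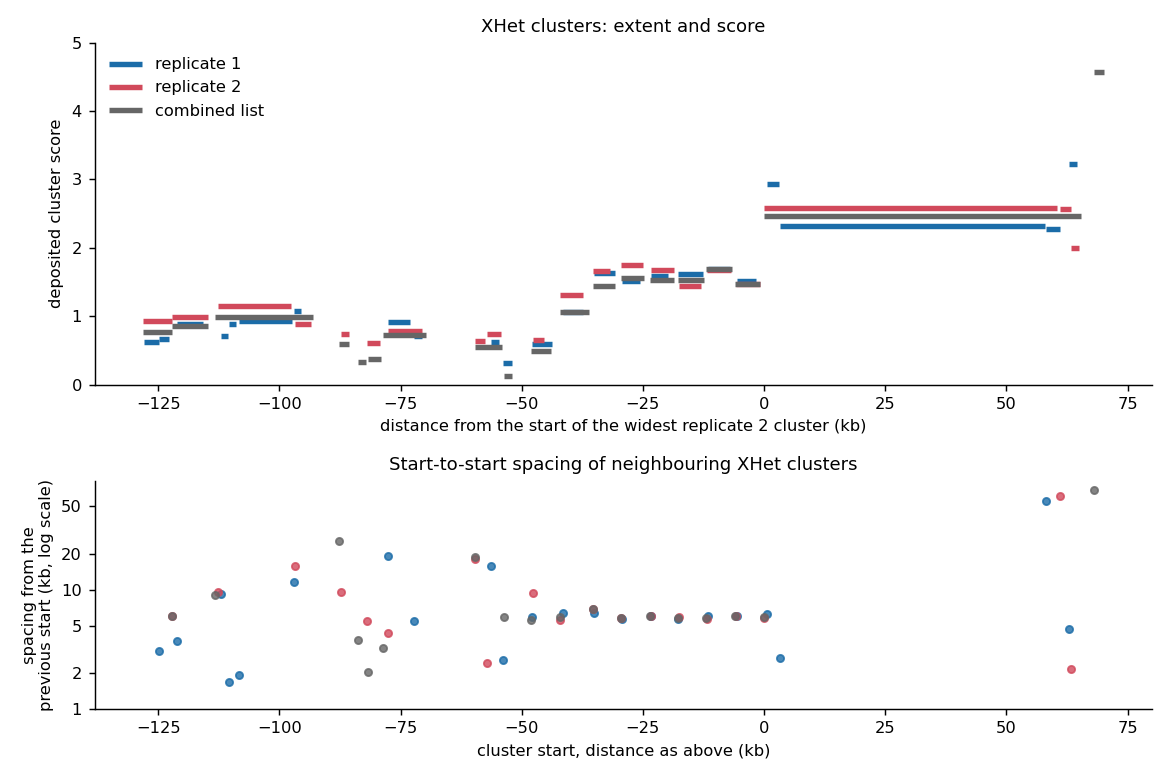
Upper panel: each XHet cluster as a horizontal bar from its start to its end, at the height of its deposited score, against distance in kb from the start of the widest replicate 2 cluster. Lower panel: spacing in kb (log scale) between the start of each cluster and the start of the one before it. Spacings of all 3 lists line up near 5.9 kb just before position 0, and scores step up at the array and again at the wide block.

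The right segment was close to solid. Its widest cluster measured 54.7 kb in replicate 1 (XHet:132004-186679, score 2.32), 60.4 kb in replicate 2 (XHet:128775-189143, score 2.58) and 65.4 kb in the combined list (XHet:128774-194146, score 2.46). From the end of the array to the end of the scaffold, coverage was 80.1% and 84.4% (82.2% ± 3.08). The last cluster ended at XHet:193338 in replicate 1 and 193855 in replicate 2, which left the final 10.8 kb and 10.3 kb without one. Both replicates covered a run of 21 windows from XHet:85001 to 190000, the longest run of the members, at 85.4% and 87.9%.

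The combined list placed a cluster in that tail, XHet:196833-198993, with a score of 4.57. This was the highest score of all 124 combined clusters of the members, and neither replicate covered a base of it. The next 2 highest scores also lacked replicate clusters. They belonged to X:21955944-21957092 (1149 bp, score 3.66) and X:22313399-22314399 (1001 bp, score 3.24), both without a covered base in either replicate. Replicate clusters from both lists lay under 54 of the 124 combined clusters, those from a single list under 35, and none under the other 35 (28.2%). Over all 4060 combined clusters the share with none was 31.2%, close to that of the members. The median width was 1473 bp for those without replicate clusters and 5065.5 bp for those over both lists. Of the 35 without replicate clusters, 15 were narrower than any cluster of the replicate lists. The combined list covers the series of these 2 ChIP libraries and was not counted as a further replicate.

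**Figure D3:**
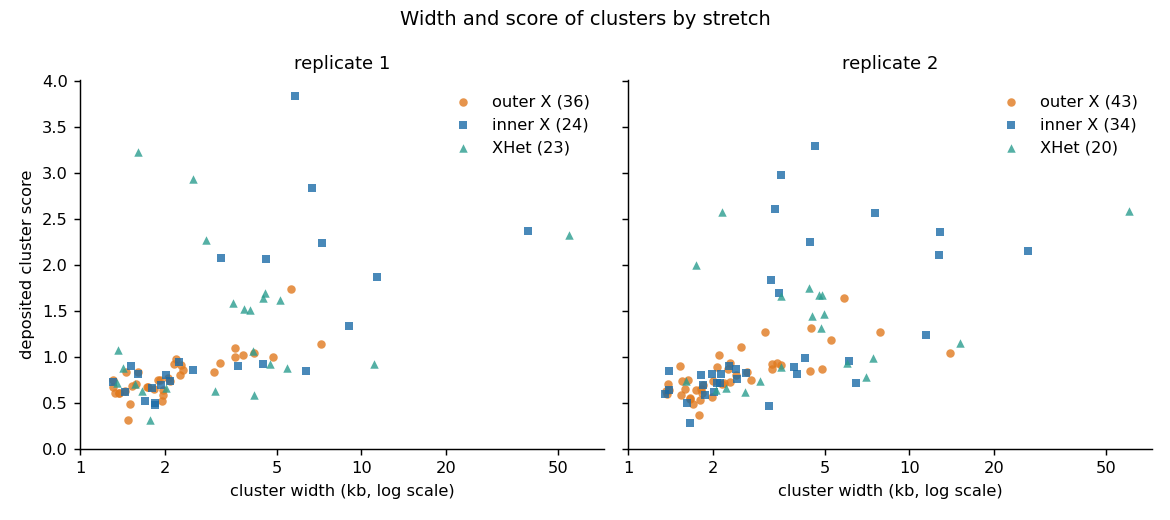
Deposited score (vertical axis) against width in kb (log scale, horizontal axis) of each cluster of replicate 1 (left) and replicate 2 (right), by stretch, with the number of clusters in brackets. Outer X clusters stay below a score of 1.75, whereas inner X and XHet clusters spread to higher scores and greater widths.

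Median window scores rose from the outer X stretch to the inner X stretch and to XHet in both replicates, but the ranges of scores overlapped. The median over windows touched by a cluster was 0.785 and 0.803 in the outer X stretch, 0.926 and 0.895 in the inner X stretch and 1.55 and 1.47 in XHet. Clusters with a score over 2 numbered 0 of 36 and 0 of 43 in the outer stretch, 6 of 24 and 8 of 34 in the inner stretch, and 4 of 23 and 2 of 20 in XHet. Over the whole lists 43.2% of clusters in replicate 1 and 41.4% in replicate 2 scored over 2, a larger share than in any of the 3 stretches. All 6 inner clusters over 2 in replicate 1, and all 8 in replicate 2, belonged to the block or to the pair at X:22082859-22091117.

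In each stretch most clusters of 1 replicate overlapped a cluster of the other, but 13 outer and 13 inner clusters of replicate 2 overlapped none. The same share over the whole lists was not computed, so these counts only describe the stretches. In the outer X stretch 32 of 36 replicate 1 clusters overlapped replicate 2, and 30 of 43 replicate 2 clusters overlapped replicate 1. In the inner stretch the counts were 19 of 24 and 21 of 34, and in XHet 22 of 23 and 17 of 20. Where clusters matched 1 to 1, their edges differed by a median of 253 bp (23 outer clusters), 144 bp (17 inner clusters) and 469 bp (11 XHet clusters). Across windows scored in both replicates, the Spearman correlation of scores was 0.76 over 39 outer windows, 0.93 over 36 inner windows and 0.94 over 33 XHet windows. Windows of 1 library share its reads, and windows under the same wide cluster carry the same score, so these correlations are descriptions.

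Where the replicates differed, replicate 2 was more often the higher. It covered more of a window than replicate 1 in 102 members and less in 43. Replicate 2 also covered more of the 13 sequences as a whole, 17.5% against 16.1% of bases. The same count over all windows was not made, so the imbalance is not shown to be particular to the members. The 5 largest differences all lay in the outer stretch. They were X:20862828-20867827 (0% in replicate 1 and 70.6% in replicate 2), X:21307828-21312827 (26.2% and 96.5%), X:20667828-20672827 (35.1% and 96.7%), X:20967828-20972827 (0% and 58.4%) and X:21337828-21342827 (56.0% and 0%). The 4 windows in which replicate 2 was higher had its score at 0.722 to 0.931. The inner stretch had no window with a difference over 50 percentage points.

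The X windows were set beside the proximal 2 Mb of 2L, 3L and 3R. The outer and inner X stretches together were covered at 14.4% ± 2.70. This value leaves out the piRNA loci, covered at 52.9% ± 6.30, whereas the other arms kept every base. The differences below therefore hold for X without its loci. The end of 2L was covered at 47.6% ± 2.66, the end of 3L at 72.6% ± 0.809 and the end of 3R at 5.93% ± 0.904. X lay below 2L by 33.1 points (difference -33.1 ± 0.032) and below 3L by 58.1 points (difference -58.1 ± 1.89), and above 3R by 8.50 ± 1.79. All 3 differences exceeded the replicate spread. Their sizes depended on the choices made. With a limit of 1 Mb in place of 2 Mb, X was the inner stretch alone (733 kb), because the piRNA loci stayed out. The other arms kept their whole last 1 Mb. The differences were then -63.0 from 2L, -73.5 from 3L and 9.02 from 3R. Over 2 Mb, with clusters below the median score of their list dropped, X exceeded 3R by 4.53 points.

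The shape of the profile differed as well. On 3L 16 of 20 bins were covered above 50% in both replicates and on 2L 9 of 20, in each case as an unbroken zone that reached the end of the arm. X had 1 such bin of 18 and 3R had none of 20. The X bins leave out the piRNA loci, which as a whole were covered at 48.4% in replicate 1 and 57.3% in replicate 2. The last 100 kb were covered at 96.9% ± 0.164 on 3L, 78.1% ± 1.84 on 2L, 26.4% ± 1.49 on 3R and 18.5% ± 8.20 on X. How far each assembled arm reaches into its centromere region was not analysed here, so the ends are not at like distances from the centromere.

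**Figure D4:**
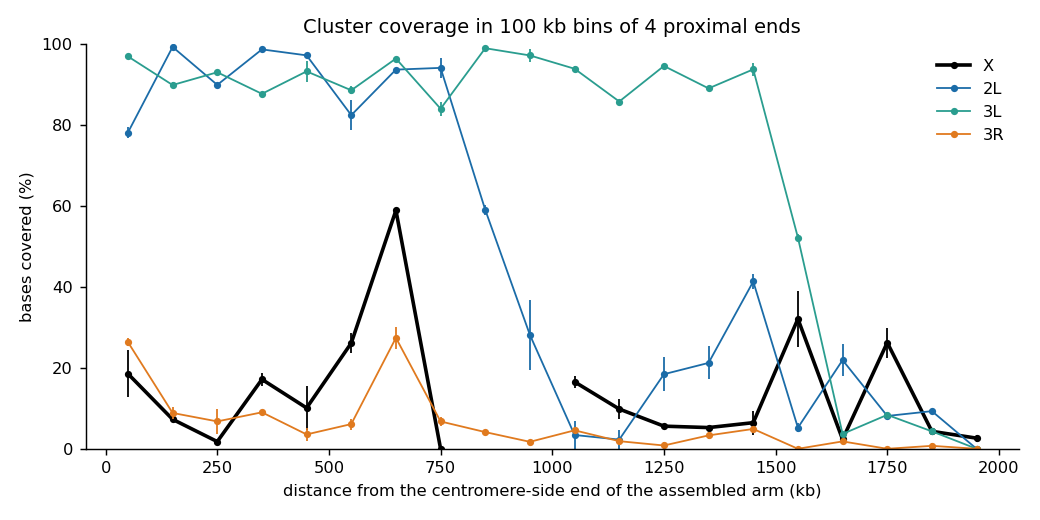
Percent of bases covered by clusters (vertical axis) in bins of 100 kb against distance in kb from the centromere-side end of each assembled arm, as the mean of 2 replicates (points), with vertical bars from the lower to the higher replicate. The gap in the X line is the excluded piRNA loci, and the X bin from 700 to 800 kb holds 32.8 kb of member bases. 3L and 2L form high plateaus at the end of the arm, whereas X peaks at 58.9% from 600 to 700 kb.

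XHet was covered less than the scaffolds of chromosome 3. It lay below 3LHet (88.2% ± 1.36) by 20.2 points (difference -20.2 ± 4.14) and below 3RHet (82.7% ± 1.37) by 14.7 points (difference -14.7 ± 4.13). Against 2LHet (72.2% ± 0.944) the difference was -4.31 ± 4.56, within the spread, and this call changed with the clusters used. In the combined list XHet was the higher, by 5.94 points. The difference was -7.40 ± 7.12 with clusters of at least 2000 bp and -29.3 ± 7.72 with clusters below the median score of their list dropped, both beyond the spread. Its clusters also scored lower, with a median of 1.06 in replicate 1 and 1.23 in replicate 2. The medians were 2.38 and 2.57 on 3LHet, 2.17 and 2.33 on 3RHet, and 2.28 and 2.37 on 2LHet. The wide XHet block, at 2.32 and 2.58, lay between those medians in replicate 1 and just above them in replicate 2, whereas every cluster of the array and of the left segment scored below them.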

How the data were processed

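Chromatin of third-instar larvae was immunoprecipitated for H3K9me3 in 2 libraries, each with an input library. The authors deposited cluster lists with 1 score per cluster. The scale of the score is not stated per the file headers, so scores were used only to rank and filter within a list and to compare like clusters. Each ChIP list has its own input, per the labels, and the file headers place the clusters on FlyBase release 5. Bowtie 0.12.7 is named in the submitters' processing notes without its role. Not given in the sources used here are the cluster caller, its threshold, the treatment of multiply matching reads, the making of the combined list and the read depth. The treatment of such reads could change coverage in XHet.

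Rows of significant enrichment were read and clipped to the sequence ends. The 3 rows of depletion lay outside the members. Each stretch was cut into 5 kb windows from its first base, and the last window of each was shorter. Coverage is the share of bases under a cluster. A window took the score of the cluster that covered most of it. The step fit kept at least 5 windows on each side. Clusters were assigned to a stretch by their midpoint, and overlap meant at least 1 bp. Coverage and step code were tested on simulated data in which coverage rose once and stayed high to the arm end. The X windows have no such plateau, so that test checks the code and not the boundary reported. Python 3.11.15, numpy 2.4.6, pandas 2.3.3 and matplotlib 3.10.9 were used, with scipy 1.17.1 for rank correlations.

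The members and the quantities reported were chosen with earlier results of these data known. Named regions were drawn from the 10 widest and 10 highest-scoring combined clusters and the longest gaps and runs. Not all of these are named in the text. The 5 windows with the largest replicate difference are all named. Any other region named in the text was chosen after its values were seen. Alternatives were the combined list, upper-scoring or wider clusters, other window sizes and limits, the piRNA loci included, proximal windows of 1 Mb and each replicate left out.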

Additional observations from a re-analysis of the deposited data

How the results depend on the processing

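Of 91 alternatives over 18 results, 30 left out a replicate. Of these, 28 concern a mean of 2 replicates and stay within 1 SD of it by construction. The other 2 set the windows of a single list, 63 and 79, against the 59 covered in both. Of the other 61, 19 stayed within the replicate spread (for counts, within 1.5 times), 41 moved and 1 turned direction (outer X against the remainder of X). Among those that moved, XHet against 2LHet, which lay within the spread, changed sign in the combined list. The combined list gave coverages of 18.9% (outer X), 28.0% (inner X), 80.2% (XHet) and 29.0% (all members). Its differences from the remainder of X were 5.64, 14.7 and 66.9 points for the 3 stretches. X members differed from the ends of 2L, 3L and 3R by -32.7, -52.8 and 12.0, and XHet from 2LHet, 3LHet and 3RHet by 5.94, -11.9 and -6.41. Dropping clusters below the median score of their list gave, in the same order, 0.304%, 10.9%, 37.4% and 8.41%; differences of -0.363 (turned) for outer X and 36.8 for XHet; -33.6, -64.9 and 4.53; and -29.3, -50.2 and -43.1. That limit was 1.75 in replicate 1 and 1.43 in replicate 2, so the lists were not at like scores. Clusters of at least 2000 bp gave 7.57% for outer X and a difference of 1.54, and -34.2 and -60.4 against 2L and 3L. Proximal windows of 1 Mb, in which X was the inner stretch alone, gave -63.0 and -73.5 against 2L and 3L. With the piRNA loci included, the members were covered at 24.8% and the step moved to 988 kb from the arm end, which is 930 kb in replicate 1 and 1045 kb in replicate 2. Without the dense block, an alternative chosen after seeing the data, inner X was at 9.12%, 1.13 points from the remainder of X. The combined list alone covered 99 windows, a count unlike the 59 that needed both replicate lists. Windows covered in both replicate lists numbered 27 with upper scores and 95 at a limit of 25%. They numbered 158 of 949 at 2 kb and 29 of 191 at 10 kb, where the number of windows itself differs. The score and width limits lower coverage by construction. For the remaining changes the cause was not tested. No paired analysis was possible because the input libraries have no list here, which leaves 1 group with no second group to block by replicate number; differences between regions were taken within each replicate.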
